A study of Mustela putorius furo with 2 samples.

Results

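STMN1, STMN2, SOX4 and DPYSL3 are 4 genes that young neurons use while they migrate and grow axons, and their RNA was followed here through the cell classes of a ferret cortex labelled DCX knockout. The 4 genes were taken by symbol from the 28156 features of the deposited matrices, and all 4 were found (ENSMPUG00000015774, ENSMPUG00000001863, ENSMPUG00000004933 and ENSMPUG00000007786 in the order above). The rule that picks them uses their symbols alone. The samples were 2 single-nucleus libraries made from frozen somatosensory cortex of Mustela putorius furo, the domestic ferret. One library was cut from the upper cortical band, its partner from the deeper one, and both carry the genotype label DCX knockout, although the series text speaks of a knockdown. DCX (doublecortin) binds microtubules in migrating neurons, and its loss is known to leave neurons in abnormal bands. No wild-type library was analysed here, and the labels used here give no age, sex or number of animals, nor the site of the DCX edit. With 1 library per band there was no replicate check and no test: every comparison below is of these libraries, and every interval covers counting error only.

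Stathmins bind tubulin dimers and promote microtubule disassembly. STMN1 is the cytosolic member, used by dividing cells and by young neurons, and STMN2 (SCG10) is the membrane-bound neuronal member found in growing axons. DPYSL3 (CRMP4) belongs to the collapsin response mediator proteins, which relay guidance cues to the cytoskeleton. SOX4 is a SOXC transcription factor of committed neuronal and oligodendrocyte precursors, and its gene has a single exon. Transcript lengths were not used here, so levels are compared below within a gene and never between genes.

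The upper and deeper libraries held 7151 and 9694 barcodes with 66253015 and 78352064 UMIs (unique molecular identifiers, 1 per captured RNA molecule), and 24 barcode sequences occurred in both. After a minimum of 500 detected genes and removal of called doublets, 6261 and 8150 nuclei remained. Clusters were named from marker genes as "like" a cell class, which gave 3181 upper-band and 3452 deeper-band excitatory neuron-like nuclei, 1022 and 770 inhibitory, 388 and 806 astrocyte-like, 126 and 193 oligodendrocyte precursor-like (OPC-like), 855 and 2074 oligodendrocyte-like and 47 and 66 microglia-like nuclei. Defining markers were present in each: for example SLC17A7 at 66.4 and 89.5 CPM (a gene's UMIs per 1000000 UMIs of the class) in excitatory nuclei, GAD2 at 733 and 690.3 CPM in inhibitory nuclei, and MBP at 3121 and 2726 CPM in oligodendrocyte-like nuclei. Clusters that did not meet the naming rule held 642 and 789 nuclei. Among them, a cluster of 71 and 450 nuclei led by EGFLAM, ABCA9 and ENPP6 had 12 oligodendrocyte markers raised. Clusters of 150 and 47 and of 155 and 136 nuclei had oligodendrocyte markers raised beside markers of another class. The oligodendrocyte-like class leaves out all of these. DCX itself was read at 71.0 CPM in upper-band and 77.5 CPM in deeper-band excitatory nuclei. Reads primed from the poly-A tail can lie outside an edited stretch, so this does not check the genotype label.

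STMN1 was higher in the deeper band in both neuron classes, in astrocyte-like and in oligodendrocyte-like nuclei, and it was highest of all in oligodendrocyte-like nuclei. STMN2 was a neuronal transcript in both bands, and its lower level over all deeper-band excitatory nuclei was mostly absent once the bands were given the same mix of subclusters. SOX4 was sparse everywhere. Its higher levels were in some excitatory subclusters, most of them upper-layer-like, and in OPC-like nuclei, there on 5 and 7 UMIs. DPYSL3 differed more between subclusters than between bands. The plot of levels by class shows these patterns.

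**Figure D1:**
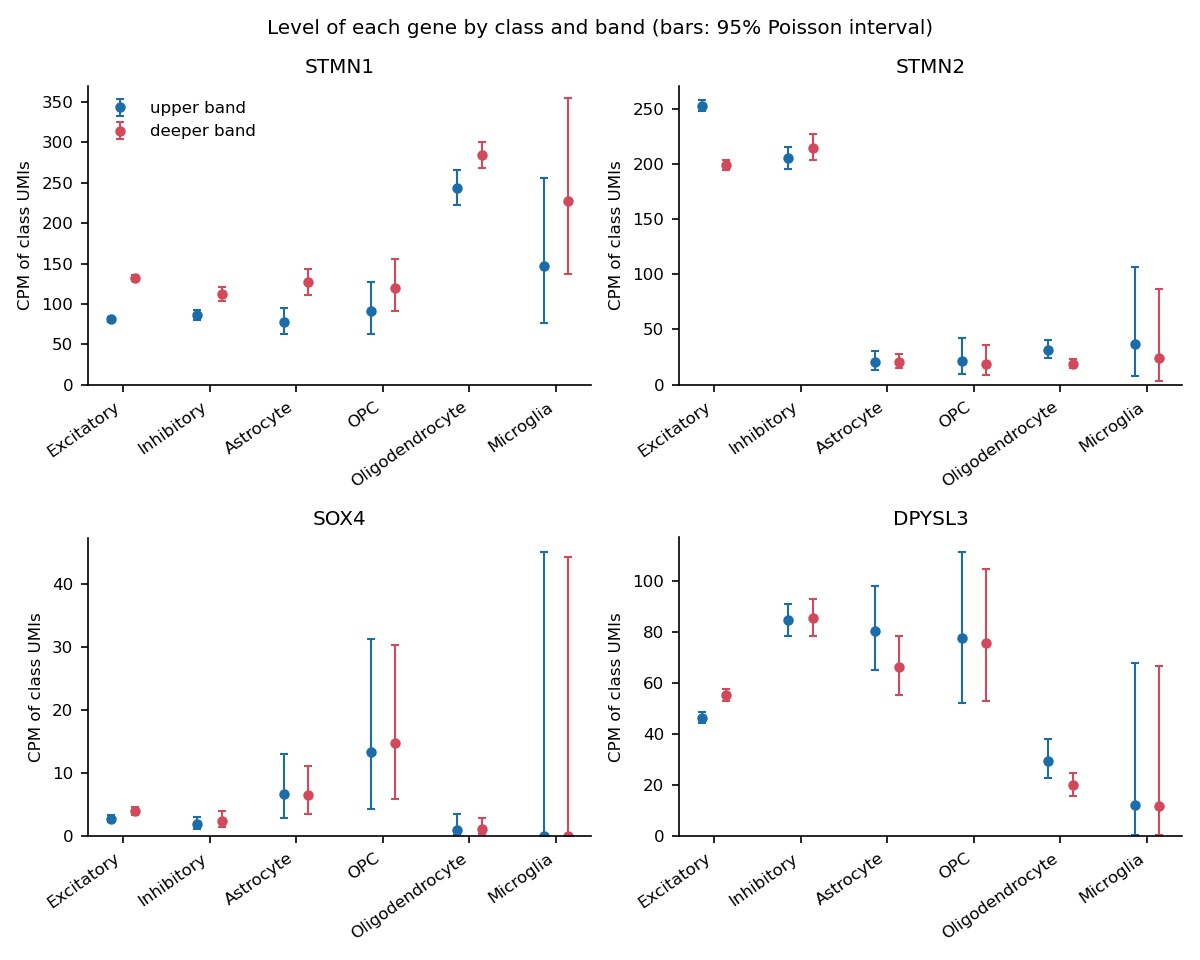
CPM of STMN1, STMN2, SOX4 and DPYSL3 (y axes, linear, from 0) in 6 classes (x axis) for the upper band (blue) and the deeper band (red); bars are 95% Poisson intervals. STMN1 points are highest in oligodendrocyte-like nuclei (243 and 284 CPM) and STMN2 points are high only in the neuron classes.

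In oligodendrocyte-like nuclei, STMN1 had 502 UMIs (243 CPM, 95% Poisson interval 222 to 266) in upper-band tissue and 1184 UMIs (284 CPM, 268 to 301) in deeper-band tissue. Microglia-like nuclei came second in both bands, at 147 and 228 CPM, but rested on 12 and 19 UMIs, and their intervals overlapped those of oligodendrocyte-like nuclei. In the upper band the next 4 classes were close together: OPC-like 91.2, inhibitory 85.9, excitatory 80.8 and astrocyte-like nuclei 78.0 CPM, with every neighbouring pair overlapping. In the deeper band those classes were again close, at 132 CPM in excitatory, 127 in astrocyte-like, 120 in OPC-like and 112 in inhibitory nuclei, with neighbours overlapping. The excitatory and inhibitory intervals thus overlapped in the upper band (77.9 to 83.7 and 79.8 to 92.3 CPM). In the deeper band they did not, and excitatory nuclei were the higher (129 to 136 against 104 to 121 CPM). Shares of nuclei with at least 1 STMN1 UMI were compared after each nucleus was thinned to 1500 UMIs, since glial nuclei were shallower. At that depth 32.7% of upper-band and 35.6% of deeper-band oligodendrocyte-like nuclei had STMN1, against 12.1% and 19.4% of excitatory nuclei. Without thinning the oligodendrocyte-like shares were 41.9% and 42.3%, and the excitatory shares 56.7% and 70.9%.

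STMN2, the axon growth stathmin, had the clearest division between neurons and glia. Excitatory nuclei held 9446 UMIs (253 CPM, 248 to 258) in upper-band tissue and 7611 UMIs (199 CPM, 195 to 204) in deeper-band tissue. Inhibitory nuclei held 1762 UMIs (205 CPM, 196 to 215) and 1320 UMIs (215 CPM, 204 to 227). Excitatory nuclei were the higher class in the upper band only. In the deeper band the intervals of the 2 neuron classes overlapped. The glial classes lay between 18.9 and 36.7 CPM in both bands and overlapped each other. The excitatory reference genes (SLC17A7, CAMK2A, NRGN and SV2B) were read in oligodendrocyte-like nuclei at 7.74% (upper) and 6.58% (deeper) of their excitatory level, and STMN2 was read there at 12.4% and 9.50% of its own excitatory level. In astrocyte-like nuclei the reference genes stood at 12.01% and 8.56% and STMN2 at 8.19% and 10.3%. The part of RNA from neurons in the glial STMN2 level was not tested. With nuclei thinned to 1500 UMIs, 29.1% and 24.5% of excitatory nuclei had an STMN2 UMI, against 4.01% and 2.54% of oligodendrocyte-like nuclei; before thinning the shares were 81.2% and 75.2% (median depth 10752 and 10400 UMIs) against 7.02% and 3.42% (2204 and 1865 UMIs).

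SOX4, the transcription factor of the group, was counted in few nuclei. Excitatory nuclei held 104 UMIs in the upper band (2.79 CPM, 2.28 to 3.38) and 149 in the deeper band (3.90 CPM, 3.30 to 4.58). These came from 3.11% and 4.03% of nuclei, and no nucleus of any class held more than 2. OPC-like nuclei had the highest SOX4 level in both bands, 13.4 CPM (4.35 to 31.3) from 5 UMIs and 14.7 CPM (5.92 to 30.3) from 7 UMIs. Astrocyte-like nuclei followed at 6.64 and 6.54 CPM (8 and 13 UMIs), then excitatory, inhibitory (1.87 and 2.44 CPM) and oligodendrocyte-like nuclei (0.97 and 1.20 CPM). Every neighbouring pair in this order overlapped. The excitatory interval lay below that of the OPC-like nuclei in both bands. No SOX4 UMI was seen in 47 upper-band and 66 deeper-band microglia-like nuclei, and 3 nuclei of those totals would be 6.38% and 4.55%. The median depth there was 1268 and 1135 UMIs, so this limits nuclei with a UMI and not nuclei that express the gene.

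DPYSL3, the guidance-cue mediator, was highest in inhibitory nuclei: 727 UMIs (84.7 CPM, 78.7 to 91.1) in upper-band tissue and 525 UMIs (85.6 CPM, 78.4 to 93.2) in deeper-band tissue. Astrocyte-like nuclei, at 80.5 and 66.4 CPM, and OPC-like nuclei, at 77.7 and 75.7 CPM, overlapped the inhibitory nuclei and each other, and in the upper band neither overlapped the excitatory nuclei. Excitatory nuclei were lower at 46.5 CPM (44.3 to 48.7) and 55.3 CPM (53.0 to 57.7), a range that did not meet the inhibitory one in either band. Oligodendrocyte-like nuclei were lower again, at 29.6 and 19.9 CPM. In the deeper band the astrocyte-like and excitatory intervals overlapped, and the 1500-UMI shares were in the order of the levels (9.89% and 9.02% of astrocyte-like against 6.70% and 7.25% of excitatory nuclei). Microglia-like nuclei held 1 UMI in each band.

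The band comparison was made first over all excitatory nuclei, where 15550 genes had at least 50 UMIs. Of those, 5.79% were past a log2 ratio of 0.5 higher in the deeper band and 9.79% were past 0.5 lower, and the median log2 ratio was -0.03. One of the 4 genes, STMN1, was past 0.5. Its level went from 80.8 CPM (3015 UMIs) in the upper band to 132 CPM (5058 UMIs) in the deeper band. The log2 ratio of these levels was 0.71 (95% interval 0.65 to 0.78). SOX4 had a log2 ratio of 0.49 (0.12 to 0.86) and DPYSL3 one of 0.25 (0.16 to 0.34), which became 0.051 (-0.05 to 0.16) with 2 times as many nuclei removed as doublets. STMN2 was lower in the deeper band, with a log2 ratio of -0.34 (-0.39 to -0.30). The classes did not hold the same neurons in both libraries. Upper-layer-like subclusters made up 49.7% of upper-band and 83.2% of deeper-band excitatory nuclei, and deep-layer-like subclusters 45.3% and 12.4%.

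**Figure D2:**
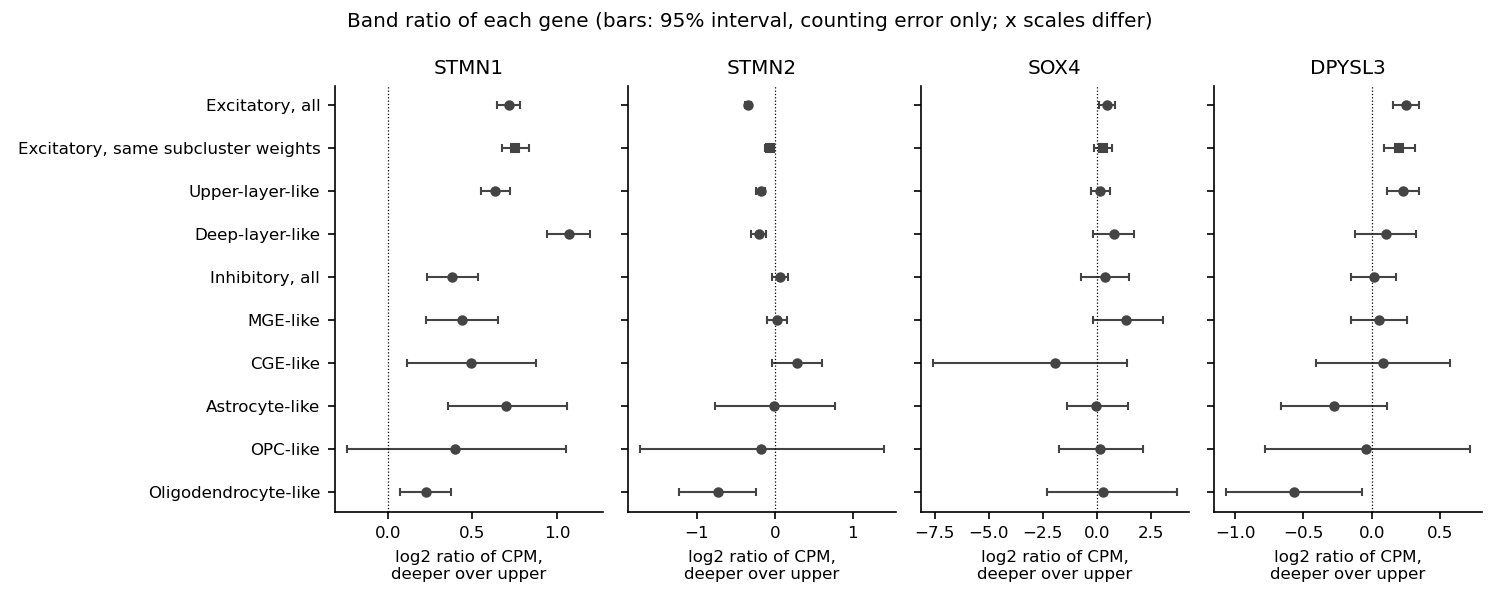
log2 ratio of CPM, deeper over upper band (x axes, whose scales differ between panels), for each gene in 10 sets of nuclei (y axis); circles are direct ratios, the square is the ratio with the same subcluster weights in both bands, bars are 95% intervals for counting error and the dotted line marks 0. STMN1 lies right of 0 in every row, with the OPC-like interval alone crossing it, and STMN2 moves from -0.34 to -0.07 when both bands get the same subcluster weights.

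Within layers, STMN1 remained higher in the deeper band. In deep-layer-like nuclei it was at 80.1 CPM (1336 UMIs) in upper-band tissue and 168 CPM (783 UMIs) in deeper-band tissue (log2 ratio 1.07, interval 0.94 to 1.20). In upper-layer-like nuclei it was at 82.6 and 128 CPM (log2 ratio 0.64, interval 0.55 to 0.72). The layers had nearly equal STMN1 in the upper band, and the deep-layer-like nuclei were higher in the deeper band. The mix inside the deep-layer-like class also differed. Its subcluster 9 (66.0 and 121 CPM of STMN1) gave 378 of 1440 upper-band and 51 of 427 deeper-band nuclei. In deep-layer-like subclusters with at least 50 nuclei in each library, STMN1 log2 ratios ran from 0.88 to 1.01. The part of this mix in the layer contrast was not tested. Whether the layer ratios differ between animals was not tested. STMN2 was at 308 and 267 CPM in deep-layer-like nuclei (log2 ratio -0.21, -0.30 to -0.12) and at 218 and 193 CPM in upper-layer-like nuclei (-0.18, -0.23 to -0.12), so in both bands it was higher in deep-layer-like nuclei. With nuclei thinned to 1500 UMIs the upper-layer-like STMN2 log2 ratio was -0.042. DPYSL3 was at 43.2 and 46.4 CPM in deep-layer-like nuclei (log2 ratio 0.10, -0.12 to 0.33) and at 47.1 and 55.3 CPM in upper-layer-like nuclei (0.23, 0.11 to 0.35). SOX4 intervals included 0 in both layers, with 33 and 16 UMIs in deep-layer-like nuclei and 67 and 126 in upper-layer-like nuclei.

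Of 20 excitatory subclusters, 15 had at least 50 nuclei in each library, and together they held 2807 upper-band and 3357 deeper-band nuclei. STMN1 was higher in the deeper band in 15 of these 15, with intervals clear of 0 in all 15, log2 ratios from 0.40 to 1.01 and a median of 0.88. Of all genes with enough UMIs, 0.74% were higher in every one of the 15. Genes with few UMIs can hardly reach that, so 0.74% is not the share for genes counted as well as STMN1. Among ribosomal protein genes with enough UMIs, 5 of 27 were higher in every one of the 15. In the remaining, smaller subclusters STMN1 was higher too, which makes 20 of 20. STMN2 was higher in the deeper band in 5 and lower in 10 of the 15. Only subcluster 1 (led by POU2F3, PLCXD2 and CCDC141) had an STMN2 interval clear of 0, at a log2 ratio of -0.42. DPYSL3 was higher in 11 and lower in 4, with 3 intervals clear of 0. SOX4 was higher in 9 and lower in 6, with no interval clear of 0. With both libraries given 1 set of subcluster weights, STMN1 went from 85.0 to 143 CPM (log2 ratio 0.75, 0.68 to 0.83), STMN2 from 217 to 207 CPM (-0.07, -0.12 to -0.01), SOX4 from 3.101 to 3.77 CPM (0.28, -0.14 to 0.71) and DPYSL3 from 45.0 to 51.8 CPM (0.20, 0.09 to 0.32). Shared weights left the STMN1 ratio as large and reduced that of STMN2.

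**Figure D3:**
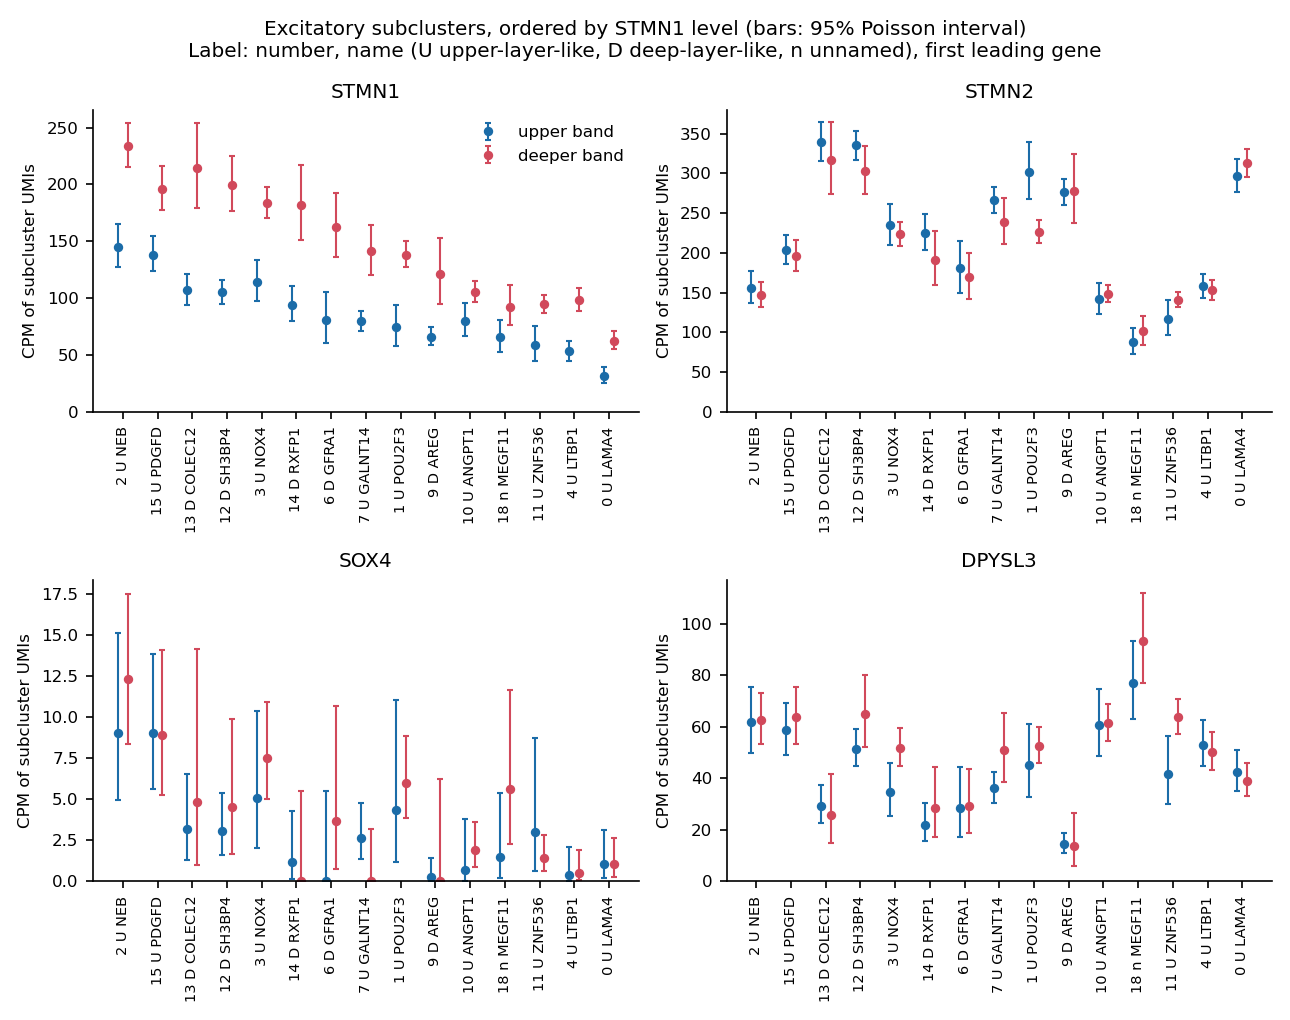
CPM of each gene (y axes, linear, from 0) in the 15 excitatory subclusters with at least 50 nuclei per library (x axis, ordered by STMN1 level and labelled with the subcluster number, its layer name and its first leading gene); blue is the upper band, red the deeper band, bars are 95% Poisson intervals. Red STMN1 points lie above blue ones in every subcluster. For STMN2 and DPYSL3 the subclusters lie far apart, and the 2 points of most subclusters lie closer together. Band ratios had intervals clear of 0 in 1 subcluster for STMN2 and in 3 for DPYSL3.

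Among the 15 subclusters with at least 50 nuclei in each library, to which the orders below are limited, STMN1 differed by more than it did between bands. The highest level was in subcluster 2, an upper-layer-like group led by NEB, COL25A1 and ADAMTS19, at 145 CPM in upper-band tissue and 234 CPM in deeper-band tissue. Subcluster 15 (PDGFD, MEGF10), also upper-layer-like, followed at 138 and 196 CPM, and deep-layer-like subcluster 13 (COLEC12, HMCN1) at 107 and 214 CPM. The lowest level was in upper-layer-like subcluster 0 (LAMA4, SYT2), at 31.9 and 62.4 CPM. Subcluster 4 (LTBP1, DRD2), at 53.1 and 98.3 CPM, and subcluster 11 (ZNF536, SNCAIP), at 58.6 and 94.6 CPM, were the next lowest. High and low groups were found within the upper-layer-like nuclei. Of the smaller subclusters, deep-layer-like 16 (HHLA2, KLHL14) had 43.0 and 94.4 CPM and deep-layer-like 17 (IQCA1L, UPP1) had 53.6 and 93.6 CPM, with 25 and 22 deeper-band nuclei.

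STMN2 followed another order. Subclusters 13 (339 and 317 CPM) and 12 (SH3BP4, C1QTNF7, 335 and 303 CPM), both deep-layer-like, were highest of the 15. The smaller subcluster 17 was above both, at 414 CPM (391 to 439) and 367 CPM (310 to 431). Upper-layer-like subcluster 0, lowest of all for STMN1, was the third highest for STMN2 at 297 and 313 CPM. Unnamed subcluster 18 (MEGF11, LTBP1) was lowest at 88.1 and 101 CPM, then subcluster 11 at 117 and 141 CPM and subcluster 10 (ANGPT1, SYT10) at 142 and 148 CPM. Subcluster 2, highest for STMN1, had 156 and 147 CPM of STMN2.

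SOX4 UMIs were gathered in some of the same upper-layer-like groups that were high in STMN1. Subcluster 2 held 14 UMIs in the upper band (9.00 CPM) and 31 in the deeper band (12.3 CPM). Subcluster 15 held 21 and 18 UMIs (9.05 and 8.89 CPM). Of the smaller ones, deep-layer-like subcluster 16 held 8 and 3 UMIs (6.04 and 13.5 CPM). Subcluster 3 (NOX4, FSHR, with RORB, a layer 4 marker, among its leading genes) held 7 and 28 UMIs (5.04 and 7.52 CPM). At the other end, the deep-layer-like subclusters 9 (AREG, NXPH2, FOXP2) and 14 (RXFP1, SULF1, FOXP2) held 1 and 0, and 2 and 0 UMIs, and upper-layer-like subcluster 4 held 1 and 2. FOXP2 and SYT6, both among the leading genes of subclusters 9 and 14, mark corticothalamic neurons of layer 6.

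DPYSL3 was low in the same FOXP2 subclusters. Subcluster 9 had 14.6 CPM in upper-band tissue and 13.5 in deeper-band tissue, and subcluster 14 had 22.0 and 28.3 CPM. Subcluster 13 was next at 29.3 and 25.8 CPM. The highest level of the 15 was in subcluster 18, at 77.0 and 93.4 CPM, followed by subcluster 2 (61.7 and 62.8 CPM) and subcluster 15 (58.6 and 63.7 CPM). The smaller subcluster 17 was above these, at 98.4 CPM (87.2 to 111) and 126 CPM (93.5 to 165). Subclusters 13 and 18 thus stood at opposite ends for STMN2 and DPYSL3, 13 being high in STMN2 and low in DPYSL3 and 18 the reverse.

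Inhibitory nuclei had a smaller STMN1 ratio than excitatory nuclei, a difference that was not tested, and the intervals of the other genes included 0. Among 11880 genes with enough UMIs, 5.04% were past 0.5 higher and 5.23% past 0.5 lower, and none of the 3 genes with enough UMIs was past 0.5. STMN1 was at 85.9 CPM (737 UMIs) in upper-band tissue and 112 CPM (687 UMIs) in deeper-band tissue (log2 ratio 0.38, interval 0.23 to 0.53). It was higher in the deeper band in 19 of 20 inhibitory subclusters, most of them small, and the share of all genes with such a count was not computed. STMN2 had a log2 ratio of 0.07 (-0.04 to 0.17) and DPYSL3 one of 0.01 (-0.15 to 0.18). SOX4, with 16 and 15 UMIs, had too few for a ratio that could be read. MGE-like interneurons, which carry markers of the medial ganglionic eminence such as LHX6, had more STMN2 than CGE-like interneurons (caudal eminence, ADARB2 and VIP), at 227 and 232 against 127 and 155 CPM. DPYSL3 had the same order, 94.3 and 97.9 against 59.5 and 63.1 CPM. STMN1 stood at 76.0 and 103.0 CPM in MGE-like and 85.4 and 120.1 CPM in CGE-like nuclei, with log2 ratios of 0.44 (0.23 to 0.65) and 0.49 (0.11 to 0.88).

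In astrocyte-like nuclei, 7.72% of 7491 genes were past 0.5 higher and 5.98% past 0.5 lower, and STMN1 was past it: 78.0 CPM (94 UMIs) against 127 CPM (252 UMIs) (log2 ratio 0.70, interval 0.35 to 1.06). DPYSL3 had a log2 ratio of -0.28 (-0.67 to 0.12) there. In oligodendrocyte-like nuclei, 5.92% of 8777 genes were past 0.5 higher and 4.55% past 0.5 lower. STMN1 had a log2 ratio of 0.22 (0.07 to 0.38) in this class, in which its level was highest, and one of 0.06 (-0.19 to 0.31) with 2 times as many nuclei removed as doublets. STMN2 (65 and 79 UMIs) and DPYSL3 (61 and 83 UMIs) were past 0.5 lower in the deeper band, at -0.73 (-1.23 to -0.24) and -0.57 (-1.07 to -0.07). The reference genes of excitatory neurons stood in these nuclei at a lower percentage in the deeper band too, as given above, and their part in these ratios was not tested. In OPC-like nuclei the STMN1 ratio was 0.40 with an interval from -0.24 to 1.05. Glial ratios were not computed with shared cluster weights. The oligodendrocyte-like class joined clusters of 664 upper-band and 1286 deeper-band nuclei and of 191 and 788. The astrocyte-like class joined clusters of 384 and 725 and of 4 and 81 nuclei. The part of this mix in the glial ratios was not tested.

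Other RNAs were higher in the deeper band together with STMN1. The summed level of 28 ribosomal protein genes went from 687 to 854 CPM in excitatory nuclei (log2 ratio 0.31, interval 0.29 to 0.34), with 26 of the 27 that had enough UMIs higher. The corresponding ratios were 0.40 in inhibitory, 0.38 in astrocyte-like, 0.44 in OPC-like and 0.35 in oligodendrocyte-like nuclei. Nuclear genes of the respiratory chain had a log2 ratio of 0.28 in excitatory nuclei. The part of these transcripts in the STMN1 result was not tested. Relative to the ribosomal protein genes, the STMN1 log2 ratio in excitatory nuclei was 0.40 (0.33 to 0.47), that of DPYSL3 was -0.06 (-0.15 to 0.03) and that of STMN2 was -0.66. The median total per excitatory nucleus was 10752 UMIs in the upper and 10400 in the deeper band, and the part of depth was not tested.

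Oligodendrocyte-like nuclei, richest in STMN1, were 13.7% of the upper-band and 25.4% of the deeper-band nuclei, so RNA from them was followed into the excitatory nuclei. These shares leave out the unnamed clusters with oligodendrocyte markers. The 13 oligodendrocyte markers summed to 131 CPM in upper-band and 136 CPM in deeper-band excitatory nuclei, and none was at 0 in both. The markers did not move together. Of the 11 with enough UMIs, 3 were past 0.5 higher in the deeper band and 4 past 0.5 lower, with a median log2 ratio of -0.32. ENPP2, on this list, was also a leading gene of excitatory subcluster 10, so the sum may not be oligodendrocyte RNA alone. The sums are 0.77% and 0.75% of the level in oligodendrocyte-like nuclei. The same percentages of the STMN1 level there come to 1.88 and 2.13 CPM, a rough figure for that reason. STMN1 in excitatory nuclei stood at 80.8 and 132 CPM. In inhibitory nuclei the same markers summed to 163 and 201 CPM (log2 ratio 0.30, interval 0.19 to 0.41), and in astrocyte-like nuclei to 427 and 564 CPM (0.40, 0.25 to 0.55), both higher in the deeper band beside a higher STMN1. At those percentages of the oligodendrocyte level, STMN1 comes to 2.35 and 3.15 CPM in inhibitory and 6.14 and 8.82 CPM in astrocyte-like nuclei. Of the other marker lists in excitatory nuclei, the 9 OPC markers summed to 317 and 214 CPM (1 at 0 in both bands) and the 17 vascular and leptomeningeal markers to 71.1 and 54.8 CPM (1 at 0), both lower in the deeper band. The 13 microglia markers summed to 23.8 and 22.8 CPM (1 at 0), and the inhibitory and astrocyte lists differed by a log2 ratio of at most 0.01 in size. The part of all these markers in the ratios of the 4 genes was not tested.

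The 4 genes were set beside a wider list of 43 genes of immature neurons, of which 30 had a symbol in the files and 25 had at least 50 UMIs in excitatory nuclei. In the deeper band, 3 of the 25 were past 0.5 higher, 1 was past 0.5 lower and 21 were within, against 5.79% higher and 9.79% lower of all genes, and the list's median log2 ratio was 0.00 against -0.03 for all genes. With the 4 genes left out, 2 of 21 were past 0.5 higher and 1 was past 0.5 lower, and the median was -0.03. The list as a whole did not move with STMN1. The genes past the fold beside STMN1 were 2 tubulins of young neurons, TUBB2B (36.0 to 57.5 CPM, log2 ratio 0.67, 0.57 to 0.77) and TUBA1A (6.30 to 8.93 CPM, 0.50, 0.26 to 0.75). TUBB2B was higher in the deeper band in 20 of 20 excitatory subclusters and TUBA1A in 15 of 20, and the share of all genes with such counts was not computed. Tubulin genes have near-identical copies, and how reads shared between copies were counted is not given in the sources used here, so these values are uncertain. TUBA1A lay at the edge of the fold, and the number of list genes past it on the higher side was between 2 and 4 over the other settings tried.

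**Figure D4:**
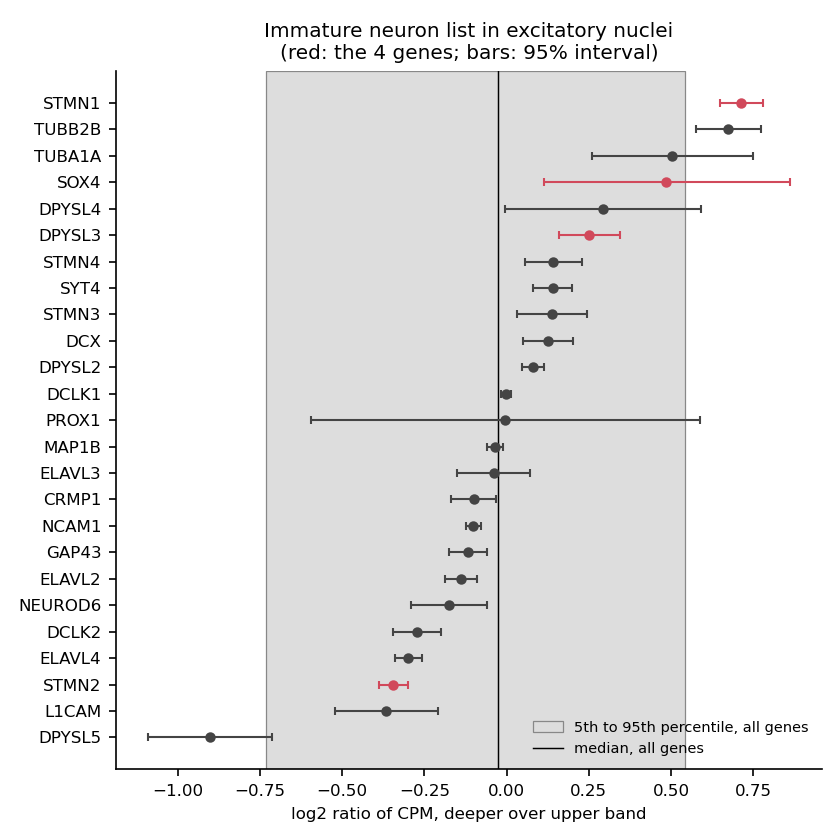
log2 ratio of CPM, deeper over upper band (x axis), in excitatory nuclei for the 25 list genes with at least 50 UMIs (y axis, sorted); red marks the 4 genes, bars are 95% intervals, the grey zone is the 5th to 95th percentile of all genes (-0.73 to 0.54) and the line their median. STMN1 and TUBB2B lie above the zone, DPYSL5 below it and the rest inside it.

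The relatives of the 4 genes differed in how they compared between bands. The stathmins STMN3 (37.0 and 40.7 CPM) and STMN4 (55.9 and 61.7 CPM) each had a log2 ratio of 0.14 in excitatory nuclei. Among the collapsin response mediators, DPYSL2 was at 0.08, DPYSL4 at 0.29 and CRMP1 at -0.10. DPYSL5, which interacts with the other family members, was at 17.8 CPM (663 UMIs) in upper-band tissue and 9.51 CPM (363 UMIs) in deeper-band tissue (log2 ratio -0.90, interval -1.09 to -0.71). DCX had a log2 ratio of 0.13 (0.05 to 0.20), its paralogue DCLK1 one of 0.00 and the growth cone protein GAP43 one of -0.12. SOX11 and SOX12, the other SOXC factors, had no row under those symbols.

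The 4 genes seldom met in 1 nucleus. Among excitatory nuclei, 29 of 3181 in the upper band (0.912%) and 48 of 3452 in the deeper band (1.39%) held at least 1 UMI of all 4, and 15 and 27 of these also held DCX. SOX4 sets this count, since it was read in so few nuclei. Inhibitory nuclei with all 4 numbered 2 and 3. In the upper band 220 excitatory nuclei held none of the 4 genes, and in the deeper band 195.

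Profiles were compared over 67 units (subclusters and glial classes, each band apart, with at least 30 nuclei) as Pearson correlations of log2(CPM + 1). These units share libraries and depths, so the values are descriptions. Over these units of neurons and glia together the 4 genes did not follow each other: correlations between them ran from -0.24 to 0.17. Correlations over excitatory subclusters alone were not computed. Among the 15 larger ones, subclusters 2 and 15 were highest for both STMN1 and SOX4, and the third was 13 for STMN1 and 3 for SOX4. Of 8673 genes, the closest to STMN2 were BICDL1 (0.89), RBFOX1 (0.89) and DLGAP2 (0.88), and the farthest was SENP7 (-0.84). The closest to STMN1 were TUBB4A (0.65), APLP1 (0.61) and ARID1B (0.61), and the farthest was TSPOAP1 (-0.64). Genes close to DPYSL3 included FAT4 (0.64) and CYP46A1 (0.60), and it was farthest from ARHGAP22 (-0.59). SOX4, from sparse counts, reached no more than 0.55 (RAD54B), then POU2F3 (0.54) and ZC4H2 (0.52), with TSPAN5 lowest at -0.51. DCX had a correlation of 0.50 with STMN2 and 0.55 with DPYSL3, and of -0.29 with STMN1.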

How the data were processed

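Single-nucleus RNA from 1 upper-band and 1 deeper-band library was measured on a droplet platform. The files hold whole UMI counts per gene and barcode, deposited by the authors as filtered matrices; Cell Ranger 6.2.1 and 2.1.1 are named in the submitters' processing notes, and a software version of 3.1.0 stands in the file headers. The genome build, the annotation and the treatment of introns are not given in the sources used here. Nuclei with under 500 genes were left out, and Scrublet (scanpy 1.11.5) calls of 11.7% and 15.2%, above the expected 5.67% and 7.69%, were removed. Counts scaled to 10000 per nucleus, 2000 variable genes, 30 components and 15 neighbours gave Leiden clusters (igraph 0.11.9), pooled over both libraries without batch correction. A cluster was named where at least 3 markers were raised and no other class led it. UMIs were summed per class and library. Intervals (95%) are Poisson for CPM, conditional binomial for ratios and Clopper-Pearson for shares (scipy 1.17.1). Free RNA was not subtracted. The ratio code was tested on simulated data. A log2 ratio of 0.5 is the fold used for counts of genes, among genes with at least 50 UMIs over both bands. Levels with shared weights give each subcluster its number of nuclei over both libraries as its weight in both bands, with a normal interval on the log scale from Poisson variances. The text names the 4 genes, their families, DCX, list genes past the fold in excitatory nuclei, the 3 highest and lowest subclusters, and the 3 closest profiles and the farthest for each gene (1 of those for DPYSL3 is not reported here); GAP43 and DCLK1 and the genes in the last section were named after their values were seen. The 4 genes and all lists were chosen with earlier results of these data known. Alternatives covered doublets, the gene minimum, thinning, scaling, clustering and the UMI minimum.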

Additional observations from a re-analysis of the deposited data

How the results depend on the processing

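Of the recomputed neuron ratios and list values, 167 kept their size or count, 15 moved and 1 changed sign. Of the glial ratios, 106 were kept and 1 moved. Levels were less steady, with 286 kept and 34 moved, 16 of these under thinning. Shares of nuclei moved most, with 122 kept and 54 moved, 37 of these under thinning. Clustering repeated without the 4 genes and the wider list kept all 23 neuron ratios and list values computed under it. Scaling to ribosomal protein genes, chosen after seeing the data, turned the excitatory DPYSL3 log2 ratio to -0.063 and gave 0.40 for STMN1 and -0.66 for STMN2. The DPYSL3 ratio was also 0.051 (-0.05 to 0.16) with 2 times as many nuclei removed as doublets, 0.12 with a minimum of 1000 genes and 0.13 (-0.13 to 0.40) after thinning to 1500 UMIs. Thinning gave 0.80 for excitatory STMN1 and -0.26 for STMN2; within upper-layer-like nuclei it gave -0.042 for STMN2 and 0.11 for DPYSL3, and within deep-layer-like nuclei 2.33 for SOX4 and -0.50 for DPYSL3, on few UMIs. Without doublet removal STMN2 was at -0.11 in upper-layer-like and -0.34 in deep-layer-like nuclei, and with 2 times as many removed at -0.35 in deep-layer-like nuclei. In excitatory nuclei with no oligodendrocyte UMI (1027 and 1054), also chosen after seeing the data, STMN2 was at -0.42. The cause of each shift was not tested. No paired analysis was possible because each band had a single library, and none could be left out for the same reason. SOX4 counts limit every statement on that gene.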

Other observations

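Some relatives of the 4 genes, and DCX and TUBB2B of the wider list, were higher in a glial class than in neurons. This did not hold for every glial class: in astrocyte-like nuclei DPYSL5 was at 5.81 and 5.53 CPM and STMN4 at 38.2 and 51.8 CPM. DPYSL5 was at 385 CPM in upper-band and 438 CPM in deeper-band oligodendrocyte-like nuclei, against 17.8 and 9.51 CPM in excitatory and 75.9 and 84.1 CPM in inhibitory nuclei. STMN4 was at 255 and 369 CPM in oligodendrocyte-like nuclei (log2 ratio 0.53, interval 0.39 to 0.68), against 55.9 and 61.7 CPM in excitatory nuclei. DCX was at 207 and 178 CPM in astrocyte-like nuclei and at 7.27 and 4.80 CPM in oligodendrocyte-like nuclei. Excitatory nuclei had 71.0 and 77.5 CPM of DCX and inhibitory nuclei 120 and 114 CPM. TUBB2B was at 134 and 211 CPM in astrocyte-like nuclei (log2 ratio 0.66, interval 0.39 to 0.93), against 36.0 and 57.5 CPM in excitatory nuclei.

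In inhibitory nuclei, 4 of 25 list genes with enough UMIs were past 0.5 higher in the deeper band and 1 was past 0.5 lower, against 5.04% and 5.23% of all genes. CALB2 (calretinin, a marker of caudal-eminence interneurons) was at 10.8 and 22.2 CPM (log2 ratio 1.03, interval 0.64 to 1.43). CGE-like nuclei made up 16.3% of upper-band and 25.3% of deeper-band inhibitory nuclei, and the part of this mix in the CALB2 ratio was not tested. These shares leave out unnamed inhibitory subclusters, which held 32.0% and 21.2%. CALB2 was also 1 of the markers used to name the CGE-like nuclei, so share and ratio are not independent. TUBA1A was at 5.48 and 14.2 CPM (1.37, 0.84 to 1.92), TUBB2B at 56.2 and 91.6 CPM (0.70, 0.53 to 0.88) and DPYSL4 at 3.96 and 6.52 CPM (0.72, 0.02 to 1.42). NEUROD6, a transcription factor of excitatory neurons, was at 7.11 and 4.07 CPM (-0.80, -1.54 to -0.11).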
